A study of Homo sapiens with 12 samples.

Results

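The replication-dependent histone genes were examined in A549, an epithelial cell line from a human lung carcinoma. The members were chosen by symbol and by measured level: they are the gene rows whose symbol names a numbered histone cluster (HIST1 to HIST4) and a histone class (H1, H2A, H2B, H3 or H4), without the PS pseudogene suffix, and whose level reached 1 FPKM (fragments per kilobase of transcript, scaled for sequencing depth) in at least 1 of the 4 groups. Of 76 matching rows, 63 reached that level, out of 22087 rows of all genes that did. The 63 comprised 6 H1, 15 H2A, 20 H2B, 11 H3 and 11 H4 genes. By the GENCODE v29 annotation 59 of them were protein-coding and 4 were of a pseudogene type (HIST2H2BA, HIST2H2BB, HIST2H2BC and HIST2H2BD). On chromosome 6 lay 52 of the genes, on chromosome 1 lay 10, and HIST4H4 lay on chromosome 12.

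The groups were RNase L knockout cells (RLKO) at 6 h after transfection of poly(I:C) at 500 ng/ml, untreated RLKO cells, parental cells (WT) at 6 h after the same transfection, and untreated WT cells, with 3 samples each and 12 in all. RNase L is an endoribonuclease that is activated by 2-5A made in response to double-stranded RNA, and poly(I:C) is a synthetic double-stranded RNA. The sources used here do not say whether the RLKO line is a single clone or whether untreated cells received transfection reagent. Total RNA was depleted of rRNA, so that transcripts without a poly(A) tail could enter the libraries, and spike-in RNAs were added before the depletion. The authors' table gave 1 FPKM value per gene and group, pooled over its samples, so no value below has a spread between samples, and the read depth is unknown.

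Replication-dependent histone genes supply the proteins that package newly made DNA. H2A, H2B, H3 and H4 form the nucleosome core, and H1 binds the linker DNA between nucleosomes. Most of these genes have no intron, and their mRNAs are the best known animal mRNAs without a poly(A) tail: they end just after a conserved stem-loop, which is bound by the stem-loop binding protein SLBP and cut free by a complex guided by the U7 small nuclear RNA. The mRNAs accumulate in S phase and are degraded when DNA synthesis stops.

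The cells carried epithelial markers: KRT7, a simple epithelial keratin, had 1333 FPKM in treated and 1400.2 in untreated RLKO cells, and 1003 in treated and 1748 FPKM in untreated WT cells, and of 7 markers of other cell types only COL1A1 reached 1 FPKM. Of 4 alveolar type II markers only SFTPB reached 1 FPKM. Log2 changes below compare treated with untreated cells on the scale of the spike-in RNAs, after adding 1 FPKM, which understates the change of low transcripts. On that scale the median of all 22087 rows was -0.25 in RLKO and -0.33 in WT, and that of the 12181 protein-coding rows was -0.24 in RLKO and -0.70 in WT. In bulk samples, fewer cells in S phase and less histone mRNA per cell cannot be told apart.

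Summed histone transcripts were much lower in treated than in untreated WT cells and differed little between treated and untreated RLKO cells. The summed level of the 63 transcripts was 44722 FPKM in treated and 43881 in untreated RLKO cells, against 17443 in treated and 54321 FPKM in untreated WT cells. On the spike-in scale 90.1% of the untreated sum was left after treatment in RLKO, and 21.0% in WT. The median log2 change of the 63 was -0.07 in RLKO and -1.85 in WT, and the median difference of the changes (RLKO minus WT) was 1.62. These differences between the genotypes carry no test, since the table has 1 value per group.

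The low members need care, because the level threshold looked at all 4 groups. A set of 50 members had at least 1 FPKM in both untreated groups, and 9 reached 1 FPKM only after treatment, so that those 9 had to be higher in a treated group. Among the 50, the median log2 change was -0.17 in RLKO, with a range from -0.66 to 0.87, and -2.09 in WT. Of the 50, 44 had a WT change of -1 or lower (88.0%), against 36.95% of all protein-coding rows. This share is common among abundant genes. It was 87.4% of other nuclear protein-coding genes at 100 to 300 FPKM in untreated RLKO cells, 91.2% at 300 to 1000 FPKM and 100% at 1000 FPKM or more. No member reached -1 in RLKO, where 5.34% of all protein-coding rows did. The change was higher in RLKO than in WT for 49 of the 50, and the exception was the pseudogene row HIST2H2BC. The same held for 8926 of the 12181 protein-coding rows. Among other nuclear protein-coding genes it held for 242 of 250 at 300 to 1000 FPKM in untreated RLKO cells. At 1000 FPKM or more it held for 92 of 92, so this count is shared by other abundant genes. Closest above the threshold, by their highest group value, were HIST2H2AA3 at 1.02 FPKM, HIST1H1A at 1.25 FPKM and HIST1H2AA at 1.27 FPKM. Closest below it were HIST1H2BH at 0.669 FPKM, HIST1H4G at 0.560 FPKM and HIST1H4K at 0.546 FPKM.

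**Figure D1:**
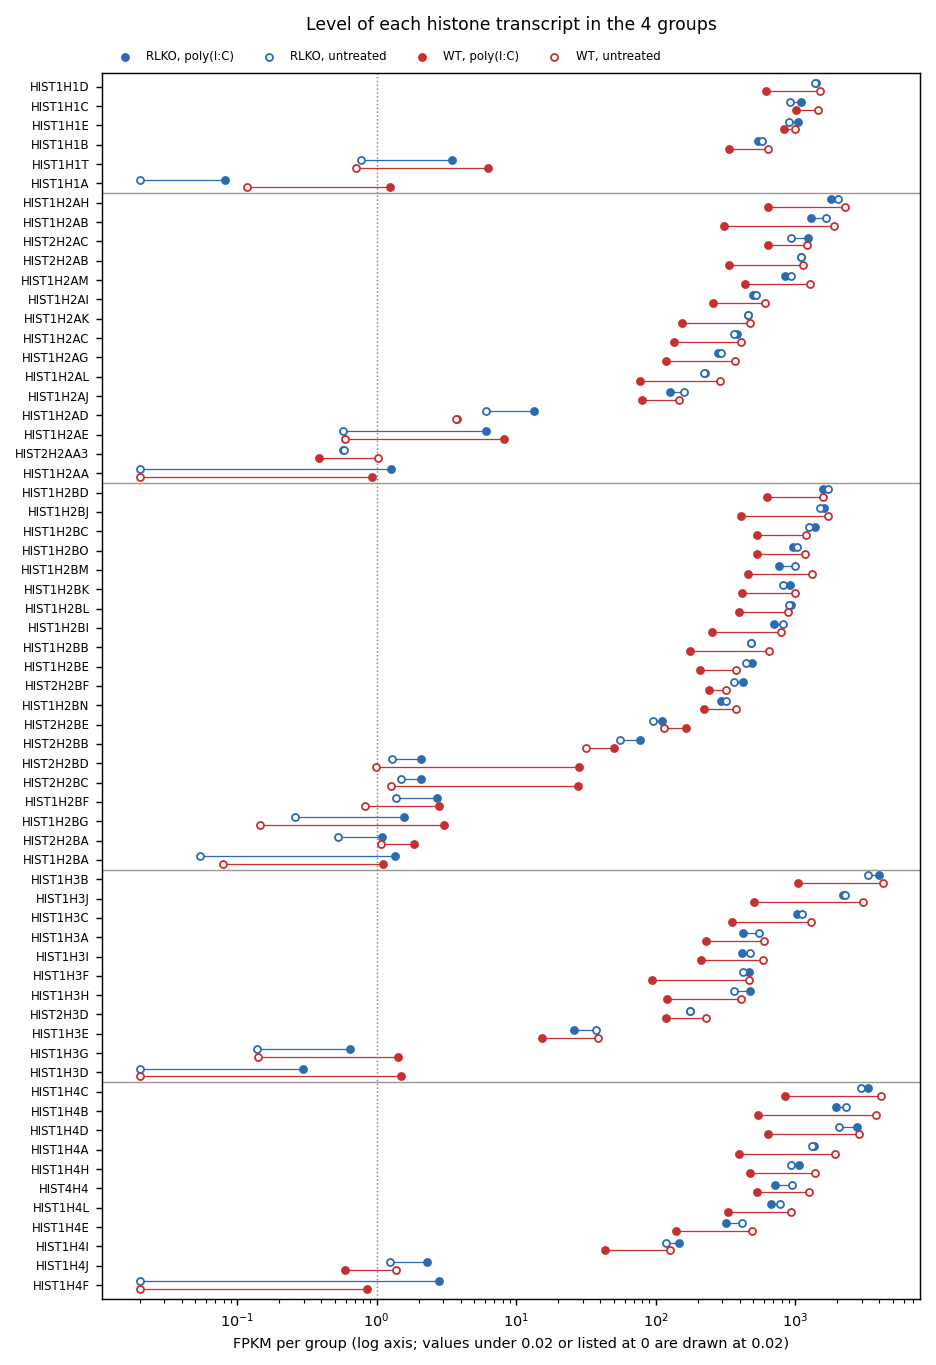
FPKM of each of the 63 histone transcripts (horizontal log axis), by histone class from H1 at the top to H4 at the bottom. Filled circles are poly(I:C)-treated and open circles untreated cells, RLKO in blue above WT in red; each circle is 1 pooled value from the authors' table, without an error. Most transcripts above 100 FPKM have blue circles close together and a red filled circle to the left of the open one.

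By the authors' test within each genotype (Cuffdiff, q under 0.05 in the authors' deposited table), 0 of the 63 fell and 5 rose in RLKO, where 0.0272% of all 22087 rows fell and 0.512% rose. All 5 reached 1 FPKM only after treatment, so the choice of members fixed their rise, and none was among the 50 members above. Their number therefore cannot be read against the share of all rows. At an unadjusted p under 0.05 the numbers in RLKO were 0 lower and 7 higher. In WT 8 fell and 10 rose by the same test, where 3.35% of all rows fell and 4.48% rose. At an unadjusted p under 0.05 the WT numbers were 28 lower and 10 higher. All 8 that fell were among the 50 members above, and of the 10 that rose only HIST2H2BC was. The other 9 of the 10 had less than 1 FPKM in untreated WT cells, and 7 of the 10 reached 1 FPKM only after treatment. HIST2H2BD reached 28.5 FPKM in treated WT cells. The rest of the 9 stayed at or below 8.18 FPKM there, so that their calls rest on low values.

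H4 transcripts kept the smallest share of their untreated level in WT among the 5 classes. H4 is the most conserved core histone, and its genes made up 31.2% of the summed histone FPKM in untreated WT cells. The 11 H4 transcripts together kept 92.6% in RLKO and 15.2% in WT on the spike-in scale. HIST1H4B (chr6:26026815-26027252, minus strand, GRCh38) had 1979 FPKM in treated and 2299.8 in untreated RLKO cells, against 539 in treated and 3801 FPKM in untreated WT cells. The treated WT value stood apart, and the other 3 lay between 1979 and 3801 FPKM. Its log2 change was -0.39 in RLKO and -3.43 in WT, the lowest of all members, and it fell in WT with q = 0.0307 in the authors' deposited table.

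HIST1H4D (chr6:26188765-26189076) had 2759 FPKM in treated and 2049.9 in untreated RLKO cells, and 637 in treated and 2869 FPKM in untreated WT cells; it fell in WT (log2 -2.78, q = 0.0201 in the authors' deposited table). HIST1H4A (chr6:26021679-26021990) had 1363 FPKM in treated and 1314 in untreated RLKO cells, and 396 in treated and 1945 FPKM in untreated WT cells, and also fell in WT (log2 -2.91, q = 0.0375 in the authors' deposited table). These genes share a pattern in which only the treated WT group is low. HIST1H4I (chr6:27138588-27139881), a less abundant H4 gene, had 146 FPKM in treated and 118 in untreated RLKO cells, and 43.7 in treated and 126 FPKM in untreated WT cells (q = 0.0400 in the authors' deposited table for WT). The most abundant, HIST1H4C, had 3335 FPKM in treated and 2954 in untreated RLKO cells, and 854 in treated and 4163 FPKM in untreated WT cells. Its WT log2 change was -2.90, and the call was missed with q = 0.101 in the authors' deposited table. HIST4H4 (chr12:14767999-14771131), the H4 gene outside the large clusters, had 719.8 FPKM in treated and 950.3 in untreated RLKO cells, and 529.9 in treated and 1251 FPKM in untreated WT cells, with log2 changes of -0.58 in RLKO and -1.85 in WT.

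H3 transcripts, which encode the core histone with the most studied modified tail, kept 92.6% of their sum in RLKO and 16.0% in WT. HIST1H3B, the most abundant of all members, had 4001 FPKM in treated and 3319.6 in untreated RLKO cells, and 1047 in treated and 4284 FPKM in untreated WT cells (log2 0.09 in RLKO and -2.65 in WT), but was not called (q = 0.211 in the authors' deposited table for WT). HIST1H3F (chr6:26250195-26250605) was the H3 gene that fell in WT, with 468 FPKM in treated and 426 in untreated RLKO cells, and 94.9 in treated and 468 FPKM in untreated WT cells. Its log2 change was -0.04 in RLKO and -2.90 in WT (q = 0.00319 in the authors' deposited table). HIST1H3J had 2189.6 FPKM in treated and 2297 in untreated RLKO cells, and 508 in treated and 3082 FPKM in untreated WT cells. Its log2 change of -3.21 in WT was among the 5 lowest, yet its q was 0.396 in the authors' deposited table. For HIST1H3J and HIST1H3B a large WT change thus came without a call. The members with the lowest WT changes, HIST1H4B at -3.43 and HIST1H2AB at -3.23, were called. HIST1H3C had 1026 FPKM in treated and 1127 in untreated RLKO cells, and 355 in treated and 1301 FPKM in untreated WT cells, without a call. All 9 H3 genes with at least 1 FPKM in both untreated groups had a WT change of -1 or lower.

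H2A transcripts, which encode the partner of H2B in the core, kept 84.2% of their sum in RLKO and 20.7% in WT. HIST1H2AB (chr6:26033176-26033568) fell in WT, with 1308 FPKM in treated and 1668 in untreated RLKO cells, and 308 in treated and 1894 FPKM in untreated WT cells. Its log2 change was -0.53 in RLKO and -3.23 in WT (q = 0.00180 in the authors' deposited table). HIST2H2AB (chr1:149887524-149887916) fell as well, with 1096 FPKM in treated and 1103 in untreated RLKO cells, and 335 in treated and 1142 FPKM in untreated WT cells (log2 -2.38 in WT, q = 0.0371 in the authors' deposited table). It overlaps BOLA1 on the other strand, and the sources used here do not say whether the counting used strand. HIST1H2AH, the most abundant H2A transcript, had 1807 FPKM in treated and 2044 in untreated RLKO cells, and 643 in treated and 2269.6 FPKM in untreated WT cells; its q was 0.0783 in the authors' deposited table for WT. HIST2H2AC (chromosome 1) had 1232 FPKM in treated and 928 in untreated RLKO cells, and 642 in treated and 1211 FPKM in untreated WT cells, with a WT log2 change of -1.53. HIST1H2AD was at a low level, with 13.4 FPKM in treated and 6.04 in untreated RLKO cells, and 3.79 in treated and 3.69 FPKM in untreated WT cells.

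H2B transcripts kept 88.1% of their sum in RLKO and 26.8% in WT. Their WT changes ran from -2.67 to 3.44, with the pseudogene rows HIST2H2BC and HIST2H2BD at the upper end. Protein-coding H2B transcripts reached at most 1.57 (HIST1H2BG), and H2A transcripts ran from -3.23 to 2.15. HIST1H2BB (chr6:26043277-26043657) fell in WT, with 484 FPKM in treated and 479 in untreated RLKO cells, and 176 in treated and 655 FPKM in untreated WT cells. Its log2 change was -0.16 in RLKO and -2.50 in WT (q = 0.0214 in the authors' deposited table). HIST1H2BJ had 1618 FPKM in treated and 1499 in untreated RLKO cells, and 413 in treated and 1723 FPKM in untreated WT cells (log2 -2.67 in WT, q = 0.0651 in the authors' deposited table). HIST1H2BD had 1583 FPKM in treated and 1708 in untreated RLKO cells, and 625 in treated and 1596 FPKM in untreated WT cells. HIST1H2BC had 1391 FPKM in treated and 1254 in untreated RLKO cells, and 533 in treated and 1199 FPKM in untreated WT cells. In each of these the treated WT group was the lowest of the 4. HIST2H2BE (chr1:149884459-149886652) did not follow that order: it had 112 FPKM in treated and 95.7 in untreated RLKO cells, and 166 in treated and 115 FPKM in untreated WT cells. Its log2 change was 0.05 in RLKO and -0.09 in WT, where q was 0.610 in the authors' deposited table. The pseudogene row HIST2H2BB had 77.5 FPKM in treated and 55.8 in untreated RLKO cells, and 50.7 in treated and 31.8 FPKM in untreated WT cells, and HIST2H2BA had 1.10 FPKM in treated and 0.533 in untreated RLKO cells, and 1.87 in treated and 1.07 FPKM in untreated WT cells. With HIST2H2BC, HIST2H2BD and HIST1H2BF, given further on, these had the highest WT changes of members at 1 FPKM in an untreated group, 0.06 for HIST2H2BB and 0.11 for HIST2H2BA.

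H1 transcripts, which encode the linker histones, kept the most in WT, 39.8%, and 95.4% in RLKO. HIST1H1C had 1109 FPKM in treated and 921 in untreated RLKO cells, and 1021 in treated and 1471 FPKM in untreated WT cells (log2 0.09 in RLKO and -1.14 in WT). HIST1H1E had 1047 FPKM in treated and 903 in untreated RLKO cells, and 833 in treated and 997 FPKM in untreated WT cells (log2 0.03 in RLKO and -0.87 in WT). HIST1H1D had 1404 FPKM in treated and 1392 in untreated RLKO cells, and 617 in treated and 1514 FPKM in untreated WT cells (log2 -0.17 in RLKO and -1.91 in WT). The 4 abundant H1 genes therefore had a WT median of -1.34, where the members with at least 1 FPKM in both untreated groups had medians of -2.21 for 12 H2A, -1.78 for 15 H2B, -2.38 for 9 H3 and -2.28 for 10 H4 genes. The ranges overlapped, since the 4 H1 values ran from -1.91 to -0.87 and the 10 H4 values from -3.43 to -0.88.

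**Figure D2:**
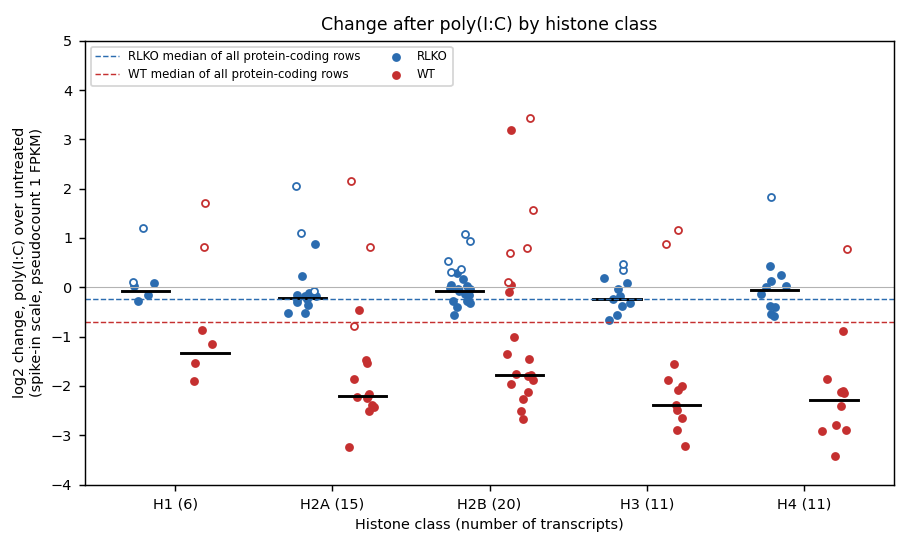
Log2 change after poly(I:C) on the spike-in scale (vertical axis, pseudocount 1 FPKM) of the histone transcripts by class, RLKO in blue to the left of WT in red. Filled circles had at least 1 FPKM in both untreated groups, open circles did not, black bars are medians of the filled circles, and dashed lines are the medians of all protein-coding rows, -0.24 in RLKO and -0.70 in WT. The WT median is -1.34 for H1 and -2.28 for H4.

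The genes that rose were at the bottom of the level range. HIST1H2AE (chr6:26216975-26217483) rose in both genotypes, with 6.13 FPKM in treated and 0.575 in untreated RLKO cells, and 8.18 in treated and 0.592 FPKM in untreated WT cells. Its log2 change was 2.05 in RLKO (q = 0.0431) and 2.15 in WT (q = 0.0168), both in the authors' deposited table. HIST1H2BG, which starts beside it on the other strand (chr6:26215159-26216692), rose too, with 1.56 FPKM in treated and 0.261 in untreated RLKO cells, and 3.06 in treated and 0.146 FPKM in untreated WT cells. HIST1H1T, known as a testis-specific linker histone, had 3.48 FPKM in treated and 0.776 in untreated RLKO cells, and 6.32 in treated and 0.717 FPKM in untreated WT cells, and rose in both (q = 0.0200 in RLKO and q = 0.00180 in WT, in the authors' deposited table). HIST1H2AA had 1.27 FPKM in treated RLKO and 0.924 FPKM in treated WT cells, and HIST1H4F had 2.79 FPKM in treated RLKO and 0.861 FPKM in treated WT cells; both are listed at 0 in the untreated groups and were called higher in both genotypes. These were the 5 members called higher in RLKO cells, and all 5 were called higher in WT cells too.

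HIST1H2BF, HIST1H3G and HIST1H1A rose in WT by the same table and were not called in RLKO. HIST1H2BF had 2.70 FPKM in treated and 1.37 in untreated RLKO cells, and 2.81 in treated and 0.832 FPKM in untreated WT cells. HIST1H3G had 0.642 FPKM in treated and 0.139 in untreated RLKO cells, and 1.42 in treated and 0.141 FPKM in untreated WT cells. HIST1H1A had 0.0825 FPKM in treated RLKO cells, is listed at 0 in untreated RLKO cells, and had 1.25 in treated and 0.119 FPKM in untreated WT cells. HIST1H2BH, under the level threshold, had 0.141 FPKM in treated and 0.152 in untreated RLKO cells, and 0.669 in treated and 0.116 FPKM in untreated WT cells (q = 0.0168 in the authors' deposited table for WT). Whether the response of these genes differs between the genotypes was not tested.

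HIST2H2BC and HIST2H2BD stood apart from all other members. They are annotated as pseudogene types, overlap each other on opposite strands of chromosome 1 (chr1:149844498-149850937, minus strand, and chr1:149842875-149846486, plus strand), and extend over 6440 and 3612 bases of transcript. HIST2H2BC had 2.07 FPKM in treated and 1.50 in untreated RLKO cells, against 27.7 in treated and 1.27 FPKM in untreated WT cells. HIST2H2BD had 2.07 FPKM in treated and 1.29 in untreated RLKO cells, against 28.5 in treated and 0.993 FPKM in untreated WT cells. Both rose in WT (log2 3.20 and 3.44, each q = 0.00180 in the authors' deposited table), and neither was called in RLKO (log2 0.18 and 0.31). Only the treated WT group was high in both. They count as uncertain, since they overlap, and 71.0% of the 50-base stretches of HIST2H2BD also occur in another gene.

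Sequence shared with other annotated genes limits the other members as well. It was counted on either strand, so it can come from a near-identical copy or from a gene that overlaps at the same place. Of the 63 members, 13 shared at least 50% of their 50-base stretches with another annotated gene and 27 shared none, with a median of 1.71%. HIST1H2AK, HIST1H3D and HIST2H2AA3 shared 100% of theirs, so how their reads were split cannot be seen. Among the 50 members with at least 1 FPKM in both untreated groups, the 41 that shared under 50% had median log2 changes of -0.16 in RLKO and -2.13 in WT, and the 9 others had -0.18 in RLKO and -1.56 in WT. Overlap with another annotated gene, which can itself give shared stretches, was found for 15 of the 63. The 38 of the 50 without such an overlap had medians of -0.17 in RLKO and -2.11 in WT, and the 12 others had -0.17 in RLKO and -1.71 in WT.

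The 3′ stem-loop was looked for in the annotated transcripts, because it is the element that sets these mRNAs apart. The histone stem-loop was searched on the transcribed strand as a 16-base shape with a 6-base stem and a 4-base loop. It was found in 67 of 58676 annotated genes (0.114%), of which 35 were among the 76 histone symbols and 25 among the 63 members. Many member transcripts are annotated as the coding part alone, and a missing match says only that the annotated letters do not hold it. Matches in members that fell, rose or did neither follow with 5 bases on each side and the stem-loop in capitals, 5′ to 3′, as DNA letters.

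HIST1H4B: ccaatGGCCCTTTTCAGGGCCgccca
HIST1H4I: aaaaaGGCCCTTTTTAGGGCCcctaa
HIST2H2BE: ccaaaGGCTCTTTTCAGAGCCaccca
HIST1H2AE: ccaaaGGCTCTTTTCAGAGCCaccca
HIST1H2BG: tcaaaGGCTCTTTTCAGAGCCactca
HIST1H2BF: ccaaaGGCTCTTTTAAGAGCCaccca
HIST1H3G: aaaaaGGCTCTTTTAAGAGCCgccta
HIST2H2BC: ccaaaGGCTCTTTTCAGGGCCattta

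HIST1H4B and HIST1H4I fell in WT, HIST2H2BE did not pass, and the last 5 rose in WT. HIST1H2AE, HIST1H2BG and HIST2H2BE carry the same 16 bases. That form, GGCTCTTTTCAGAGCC, was the most common, in 11 of the 25 members with a match, and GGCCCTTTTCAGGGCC, the form of HIST1H4B, was found in 5. Of the 50 members with at least 1 FPKM in both untreated groups, the 19 with a match had median changes of -0.11 in RLKO and -1.85 in WT, and the 31 without had -0.18 in RLKO and -2.16 in WT. In 18 of the 25 the longest annotated transcript ran on for more than 100 bases after the stem-loop, and 5 of these 18 also have an annotated transcript that ends within 100 bases of it. Of the 50, the 14 with such a long transcript had medians of -0.03 in RLKO and -1.87 in WT, and the 5 others with a match had -0.24 in RLKO and -1.85 in WT. The table does not give levels of transcript ends, so whether the reads came from stem-loop ends or from extended ends cannot be seen.

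Histone mRNAs are abundant, and in these data the change in WT was lower the higher the level before treatment. At 300 to 1000 FPKM in untreated RLKO cells, the 23 histone members had a median log2 change of -0.16 in RLKO and -2.01 in WT, and 250 other nuclear protein-coding genes had -0.86 in RLKO and -2.35 in WT. At 1000 FPKM or more, the 16 histone members had -0.22 in RLKO and -2.56 in WT, and 92 other genes had -1.07 in RLKO and -2.86 in WT. At 100 to 300 FPKM, 5 histone members had -0.19 in RLKO and -2.12 in WT, and 832 other genes had -0.64 in RLKO and -1.90 in WT. In each of these 3 ranges the histone median lay inside the interquartile range of the other genes in WT and above it in RLKO. At 30 to 100 FPKM it lay above that of the other genes in both genotypes: 3 histone members had 0.05 in RLKO and -0.09 in WT, and 2395 other genes had -0.36 in RLKO and -1.25 in WT. At 1000 FPKM or more 59.8% of the other genes had an RLKO change of -1 or lower and no histone member had. The level in untreated RLKO cells also enters the RLKO change, and no test was made.

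**Figure D3:**
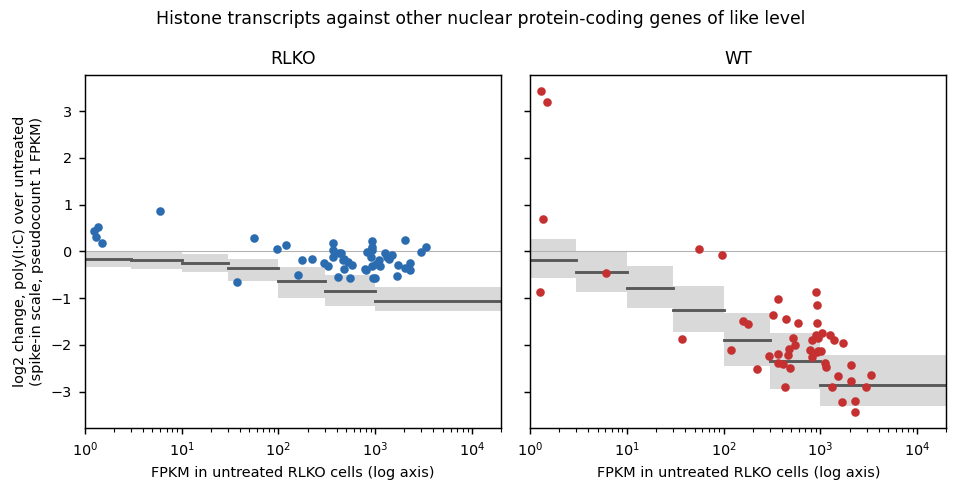
Log2 change after poly(I:C) on the spike-in scale (vertical axis, pseudocount 1 FPKM) against FPKM in untreated RLKO cells (horizontal log axis), in RLKO (left) and WT (right). Circles are histone members, grey lines are medians and grey bands interquartile ranges over the other nuclear protein-coding genes in each range of level. At 1000 FPKM or more the grey median is -1.07 in RLKO and -2.86 in WT.

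Within the 50 members the same relation with level was seen in WT: the level in untreated RLKO cells and the WT change had a Spearman rho of -0.57, and with the RLKO change rho was -0.20. RNase L is known to cut single-stranded RNA after UA and UU. In the coding sequences of 59 members these dinucleotides occurred at a median of 4.83 per 100 bases, against 7.94 in 12122 other protein-coding rows, of which 21.8% lay below the histone median. Histone coding sequences were also shorter, with a median of 390.0 bases against 1401 in the other rows, and richer in G and C, with a median of 60.4% against 52.0%. Among 48 of the 50 members with a coding sequence, the density of UA and UU ran from 2.28 to 10.7 per 100 bases and had a rho of -0.27 with the RLKO change and -0.50 with the WT change. The density also differed by class, from 2.28 to 4.83 in the 4 H1 genes and from 4.21 to 10.7 in the 10 H4 genes. Their WT medians were -1.34 and -2.28, and density apart from class was not tested. For coding GC content rho was 0.19 with the RLKO change and 0.22 with the WT change, and for the authors' transcript half-life, taken from another study per the file headers, it was 0.00 with the RLKO change and 0.21 with the WT change over 39 members. These are descriptions across genes that share libraries, sequence and loci, and genes are not replicates.

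The untreated levels were not the same in the 2 genotypes. Among the 50 members the median log2 ratio of RLKO over WT was 1.35 in treated cells and -0.49 in untreated cells on the spike-in scale. All protein-coding rows had 0.25 in treated and -0.24 in untreated cells. Other nuclear protein-coding genes had 1.16 and -0.43 at 300 to 1000 FPKM in untreated RLKO cells, and 1.35 and -0.54 at 1000 FPKM or more, so abundant genes had similar ratios. In FPKM, 48 of the 50 were higher in RLKO than in WT after treatment, and 40 of the 50 were lower in RLKO before treatment. Of all 12181 protein-coding rows, 7031 were higher in RLKO after treatment and 5869 were lower before it. Of the 250 other genes at 300 to 1000 FPKM, 234 were higher in RLKO after treatment and 171 were lower before it. HIST1H4B shows both, with 1979 FPKM in RLKO and 539 FPKM in WT after treatment, and 2299.8 FPKM in RLKO and 3801 FPKM in WT before it. Part of the difference between the changes thus lay in the untreated groups.

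The 52 members on chromosome 6 lie in 3 stretches (chr6:25726132-26285638, chr6:27125897-27147515 and chr6:27807444-27893843). They hold 32, 5 and 15 members, and all 9 members that reached 1 FPKM only after treatment lie in the first. Among members with at least 1 FPKM in both untreated groups, the first stretch (22 members) had medians of -0.12 in RLKO and -2.23 in WT, the second (5 members) -0.07 in RLKO and -2.24 in WT, and the third (15 members) -0.28 in RLKO and -2.08 in WT. Of the genes called in WT, 6 that fell and 8 that rose lay in the first stretch, 1 that fell lay in the second, and none lay in the third, where 0 members passed the authors' Cuffdiff test in either direction. Over all rows 3.35% fell and 4.48% rose in WT, so a count of 0 among 15 members is not set apart from that share. The 8 that rose all had less than 1 FPKM in untreated WT cells. In the first stretch low genes with rises sat directly beside abundant genes with falls: HIST1H3F fell and its nearest members on either side, HIST1H4F and HIST1H3G rose in WT.

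**Figure D4:**
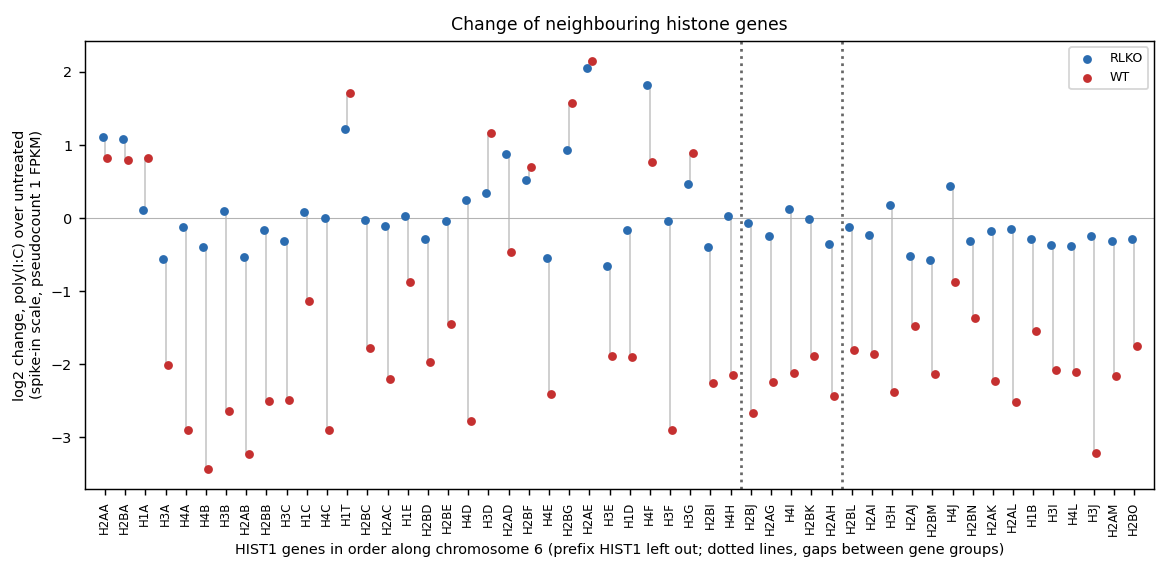
Log2 change after poly(I:C) on the spike-in scale (vertical axis, pseudocount 1 FPKM) of the 52 histone members on chromosome 6 in their order along it (horizontal axis, not to scale), RLKO in blue and WT in red, joined by grey lines. Dotted lines mark the gaps between the 3 stretches, whose WT medians over members with at least 1 FPKM in both untreated groups are -2.23, -2.24 and -2.08. Most red circles lie below their blue circle, and members with both circles above 0 lie in the first stretch.

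Many H2A and H2B genes are arranged in divergent pairs that share the stretch between their starts. Of the members, 11 such pairs had starts 139 to 331 bases apart, and in 9 of them both genes had a WT change of the same sign. As 49 of the 63 members had a WT change below 0, a shared sign is not particular to pairs. In 8 pairs the 2 WT changes lay within 1 log2 unit. HIST1H2AG and HIST1H2BJ had RLKO changes of -0.24 and -0.07 and WT changes of -2.24 and -2.67, and HIST1H2AE and HIST1H2BG were both higher, with the values already given. The 2 pairs of opposite sign were HIST2H2AA3 with HIST2H2BD, at WT changes of -0.79 and 3.44, and HIST1H2AD with HIST1H2BF, at -0.46 and 0.70, all 4 of them low before treatment. HIST2H2AC and HIST2H2BE had the same sign but differed by 1.44 log2 units in WT, with RLKO changes of 0.23 and 0.05 and WT changes of -1.53 and -0.09.

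Promoter sequences from RefSeq (GRCh38.p14, 250 bases before to 50 after the gene start) were matched to 54 of the 63 members. Elements known from histone promoters were searched by their letters on both strands. The TATA box (TATAAA) was in 37 of 54, against 11.5% of all 35116 promoters, and the CCAAT box (CCAAT) in 48 of 54, against 34.6%. The octamer ATTTGCAT, the binding motif of the factor OCT1 (POU2F1), was in 11 of 14 H2A and 13 of 16 H2B promoters, 1 of 9 H3 promoters and none of 6 H1 or 9 H4 promoters, against 1.77% of all. The H3 match is HIST1H3D, whose RefSeq window is the same as that of HIST1H2AD and lies away from the GENCODE start of HIST1H3D, so that window is counted in both classes. The H1 box (AAACACA) was in 6 of 6 H1 promoters, against 5.64% of all, and the core of the H4 element (GGTCCG), bound by HINFP, in 9 of 9 H4 promoters, against 11.3%. A match is a description of letters and not a measured site. The windows of divergent H2A and H2B pairs overlap, so a TATA box, CCAAT box or octamer can be counted for both genes. A match can also lie far from the start, as TATAAA does in the window of HIST4H4. Promoters of members described above follow, with HIST1H2AE as the start region it shares with HIST1H2BG; each reads 5′ to 3′ on the gene's strand, and capitals mark any of the 5 elements on either strand.

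HIST1H1C (chr6:26056421-26056720, minus strand): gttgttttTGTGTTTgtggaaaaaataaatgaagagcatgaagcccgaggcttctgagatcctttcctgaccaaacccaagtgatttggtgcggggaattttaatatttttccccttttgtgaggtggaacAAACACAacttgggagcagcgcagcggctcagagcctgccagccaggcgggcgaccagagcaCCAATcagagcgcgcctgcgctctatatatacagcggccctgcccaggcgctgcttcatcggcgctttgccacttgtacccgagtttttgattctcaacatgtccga
HIST1H2AB (chr6:26033569-26033868, minus strand): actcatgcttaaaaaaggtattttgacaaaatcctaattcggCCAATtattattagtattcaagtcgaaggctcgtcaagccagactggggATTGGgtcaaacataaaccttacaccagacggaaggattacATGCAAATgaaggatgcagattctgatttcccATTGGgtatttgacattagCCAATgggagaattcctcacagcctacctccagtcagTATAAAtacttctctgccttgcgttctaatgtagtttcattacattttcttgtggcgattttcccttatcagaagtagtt
HIST1H2AE (chr6:26216671-26216970, plus strand): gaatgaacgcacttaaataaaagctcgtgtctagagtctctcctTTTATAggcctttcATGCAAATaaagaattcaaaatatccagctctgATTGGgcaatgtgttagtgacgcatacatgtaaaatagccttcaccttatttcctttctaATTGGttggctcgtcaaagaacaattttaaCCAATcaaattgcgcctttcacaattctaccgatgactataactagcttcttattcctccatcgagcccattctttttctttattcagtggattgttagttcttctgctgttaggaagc
HIST1H3F (chr6:26250586-26250885, minus strand): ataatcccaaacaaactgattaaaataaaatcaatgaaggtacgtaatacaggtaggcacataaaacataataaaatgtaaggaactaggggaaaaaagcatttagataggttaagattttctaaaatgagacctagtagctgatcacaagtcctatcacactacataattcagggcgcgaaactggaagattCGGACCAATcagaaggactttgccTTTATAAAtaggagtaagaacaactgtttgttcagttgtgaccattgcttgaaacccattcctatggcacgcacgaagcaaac
HIST1H4B (chr6:26027234-26027533, minus strand): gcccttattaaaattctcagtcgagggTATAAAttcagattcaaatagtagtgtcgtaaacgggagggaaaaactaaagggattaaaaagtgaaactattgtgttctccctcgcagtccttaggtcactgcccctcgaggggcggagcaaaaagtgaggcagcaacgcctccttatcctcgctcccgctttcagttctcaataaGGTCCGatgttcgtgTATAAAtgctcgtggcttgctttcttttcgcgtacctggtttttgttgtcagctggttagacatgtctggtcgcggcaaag

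The windows of HIST1H2AB, which fell in WT, and of HIST1H2AE, which rose in both genotypes, each hold CCAAT boxes and an octamer. HIST1H2AB has TATAAA on its own strand near its start, whereas the match in the HIST1H2AE window is on the other strand, where it belongs to the side of HIST1H2BG. No value in the table measures transcription from them.

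Genes that act on histone mRNAs had WT medians nearer to 0 than the histone mRNAs, but the lists were not matched to the histone members by level. Those named in this paragraph had 31.3 to 49.6 FPKM in untreated RLKO cells. Other nuclear protein-coding genes at 30 to 100 FPKM there had a WT median of -1.25. Of 21 measured genes of histone mRNA 3′ processing and export, none was called in RLKO and 1 rose and 2 fell in WT, with medians of -0.41 in RLKO and -1.05 in WT. Over all 22087 rows 0.0272% fell and 0.512% rose in RLKO, and 3.35% fell and 4.48% rose in WT. Few calls or none in lists this short therefore say little about the lists. NXF1, the general mRNA export receptor, rose in WT, with 34.6 FPKM in treated and 32.8 in untreated RLKO cells, and 98.8 in treated and 32.2 FPKM in untreated WT cells (q = 0.00657 in the authors' deposited table). CSTF2, a subunit of the cleavage complex, had 25.7 FPKM in treated and 31.3 in untreated RLKO cells, and 12.3 in treated and 38.5 FPKM in untreated WT cells, and LSM10, of the U7 particle, had 32.7 FPKM in treated and 49.6 in untreated RLKO cells, and 15.4 in treated and 49.6 FPKM in untreated WT cells; both fell in WT. SLBP had 42.7 FPKM in treated and 41.4 in untreated RLKO cells, and 33.4 in treated and 53.0 FPKM in untreated WT cells, without a call (q = 0.557 in the authors' deposited table for WT).

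None of 10 genes of histone locus transcription was called by Cuffdiff in either genotype (medians -0.35 in RLKO and -0.82 in WT). All protein-coding rows had medians of -0.24 in RLKO and -0.70 in WT. With 3.35% of all rows lower and 4.48% higher in WT, a count of 0 among 10 genes is not set apart from that share. The most abundant were YY1, a zinc finger transcription factor, with 52.5 FPKM in treated and 50.8 in untreated RLKO cells and 45.9 in treated and 57.3 FPKM in untreated WT cells, and CDK2, the S phase kinase, with 31.8 FPKM in treated and 29.7 in untreated RLKO cells and 18.6 in treated and 36.9 FPKM in untreated WT cells. Of 19 genes of histone mRNA decay, none was called in RLKO and LSM4 alone fell in WT, with 82.0 FPKM in treated and 78.2 in untreated RLKO cells, and 34.3 in treated and 99.8 FPKM in untreated WT cells (q = 0.0236 in the authors' deposited table); the list medians were -0.19 in RLKO and -0.77 in WT.

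The 12 genes listed as replication-independent variants, most of which have polyadenylated mRNAs and are not restricted to S phase (H2AFX also has a stem-loop form), had medians of -0.11 in RLKO and -0.57 in WT. H1F0, the linker variant of resting cells, rose in WT, with 55.5 FPKM in treated and 39.3 in untreated RLKO cells, and 126 in treated and 39.6 FPKM in untreated WT cells (q = 0.0138 in the authors' deposited table). H2AFZ, the gene of H2A.Z, had 504 FPKM in treated and 1239.7 in untreated RLKO cells, and 226 in treated and 1674 FPKM in untreated WT cells. Its RLKO change of -1.47 was lower than that of every histone member, of which the lowest was -0.66, and its WT change was -3.50 (q = 0.227 in the authors' deposited table). H3F3B, a gene of H3.3, had 929 FPKM in treated and 756 in untreated RLKO cells, and 843 in treated and 717 FPKM in untreated WT cells. In FPKM, H2AFZ was thus lower and H3F3B higher in treated than in untreated cells of both genotypes. Both were picked after values were seen and do not stand for abundant variants as a set.

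Of 20 histone chaperone and chromatin assembly genes none was called by Cuffdiff in either genotype, with medians of -0.41 in RLKO and -1.22 in WT. For this list and the next, the share of all rows called in WT was 3.35% lower and 4.48% higher. NAP1L1, a chaperone of H2A and H2B, had 283 FPKM in treated and 287 in untreated RLKO cells, and 208 in treated and 333 FPKM in untreated WT cells. RBBP7 had 154 FPKM in treated and 192 in untreated RLKO cells, and 105 in treated and 266 FPKM in untreated WT cells. Of 30 S phase and DNA replication genes none was called in RLKO and 2 fell in WT, with medians of -0.31 in RLKO and -1.40 in WT. RRM1, a subunit of ribonucleotide reductase, had 128 FPKM in treated and 222 in untreated RLKO cells, and 46.9 in treated and 160 FPKM in untreated WT cells (q = 0.0231 in the authors' deposited table). MCM6, a subunit of the replicative helicase, had 60.9 FPKM in treated and 78.1 in untreated RLKO cells, and 22.2 in treated and 67.7 FPKM in untreated WT cells (q = 0.0296 in the authors' deposited table). Of the 30 S phase genes 29 had an RLKO change below 0 and 30 a WT change below 0, where 80.1% of all protein-coding rows were below 0 in RLKO and 78.4% in WT, and whether the share of cells in S phase moved with the histone levels was not tested.

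**Figure D5:**
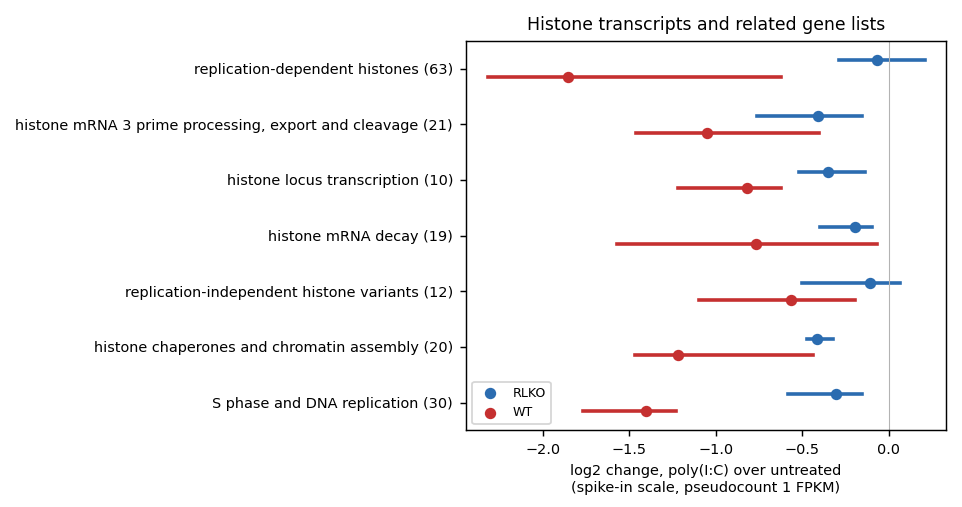
Median log2 change after poly(I:C) on the spike-in scale (horizontal axis, pseudocount 1 FPKM) of the 63 histone members and of 6 related lists, with the number of genes in parentheses, RLKO in blue above WT in red. Bars are interquartile ranges over genes, not errors. The histone members have a median of -0.07 in RLKO and -1.85 in WT, and the S phase list -0.31 in RLKO and -1.40 in WT.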

How the data were processed

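Total RNA of 12 samples in 4 groups was sequenced after rRNA depletion. FastQC, Trimmomatic 0.32, TopHat2 2.0.6, Bowtie2 2.0.2, Cuffdiff 2.2.1 and the build GRCh38.p12 are named in the submitters' processing notes, without settings. The sources used here do not give the strand or the way Cuffdiff scaled the libraries. The authors deposited 1 FPKM value per group. Per the file headers, they also gave p-values and q-values of their own tests within each genotype, and GC content in percent, which is not reported here. The table held 58671 gene rows and 92 ERCC spike-in rows; 86 rows with the status HIDATA, none a histone gene, were set aside.

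With no values per sample, tests across samples could not be run, and the authors' q-values at 0.05 were used. The spike-in scale used 49 ERCC rows averaging at least 1 FPKM: the factor of a group was the median of the ratios of its values to the rows' geometric means (1.10 for treated and 0.971 for untreated RLKO, 1.21 for treated and 0.792 for untreated WT). Log2 changes were taken after division by the factor and addition of 1 FPKM, and are relative to the spike-in RNAs. The members and lists were chosen with earlier results of these data known. Members were named if called, if among the 3 most abundant of their class, if among the 5 highest or lowest WT changes of those with at least 1 FPKM in an untreated group, or if closest to the threshold. HIST1H2AD, HIST1H2AG, HIST2H2AC, HIST2H2BE and HIST4H4, and from the lists KRT7, H2AFZ and H3F3B, were added after values were seen. A further gene of the naming rule is not reported here. Alternatives were other pseudocounts, filters, scalings and q thresholds. Transcript sequences came from GENCODE v29 and promoters from RefSeq. Computation used Python 3.11.15 and pandas 2.3.3, and was tested on simulated data.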

Additional observations from a re-analysis of the deposited data

How the results depend on the processing

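The median log2 change of the 63 histone transcripts was below 0 in WT under all alternatives run, with -1.24 the nearest to 0, but in RLKO its sign depended on the scaling. It was 0.11 in RLKO and -1.24 in WT in FPKM as deposited, with a difference of 1.18, and 0.26 in RLKO and -1.30 in WT with median-ratio scaling over all rows, with a difference of 1.44; the cause was the scaling itself, which also moved the median of all rows, to -0.12 in RLKO and 0.11 in WT as deposited and to 0.00 in RLKO and 0.06 in WT with median-ratio scaling. Members below 0 numbered 37 of 63 in RLKO and 49 in WT on the spike-in scale, 24 in RLKO and 47 in WT as deposited, and 11 in RLKO and 48 in WT with median-ratio scaling. With no filter on low values the WT median was -1.53 and the difference 1.32; with at least 5 FPKM in any group they were -2.04 and 1.75, and with at least 1 FPKM in both untreated groups -2.09 and 1.76. With at least 1 FPKM in both untreated groups, 0 members were called in RLKO (0 higher, and 0 at an unadjusted p under 0.05 by Cuffdiff) and 9 in WT (1 higher). With at least 5 FPKM in any group 2 were called in RLKO, both of them higher, and 4 were called higher in WT. At q under 0.1, 13 were called lower in WT. Pseudocounts of 0.1 and 5 FPKM, and spike-in rows of at least 10 FPKM, moved each of these 3 medians by less than 0.1. The counts for members with 1 FPKM in both untreated groups, and the restriction to protein-coding members, were chosen after seeing the data. No paired analysis was possible because the table holds 1 pooled value per group, and for the same reason leaving out single replicates was not run. Read depth is unknown, so no precision can be given for levels near 1 FPKM.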
